A study of Mus musculus with 6 samples.

Results

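Of the 24421 genes in the count table, 6 were examined: Ntsr1, Hs3st4, Crym, Rprm, Garnl3 and Syt6. They were chosen by symbol as markers of corticothalamic neurons of cortical layer 6 that are not transcription factors, and all 6 had a row in the table and passed the filter on low counts. Corticothalamic neurons are the glutamatergic cells of layer 6 that send axons back to the thalamus, where they excite relay neurons and, through collaterals in the reticular nucleus, also inhibit them. The markers share a cell type and not a pathway: a peptide receptor, a vesicle-family membrane protein, a regulator of a small GTPase, a sugar-modifying enzyme, a hormone-binding protein and a cell cycle inhibitor. Such genes are used to tell corticothalamic neurons from the intratelencephalic and layer 6b neurons that lie beside them, and Cre lines driven by Ntsr1 are the usual genetic handle on the class.

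The libraries hold polyadenylated RNA of sorted nuclei from the mPFC, the medial prefrontal cortex. All mice carried the Foxp2-Cre allele and received an AAV for KASH-GFP, a fluorescent protein held at the nuclear envelope, in the mPFC on both sides 4 weeks before collection. One group of 3 libraries came from mice given CFA (complete Freund's adjuvant, an agent that causes lasting inflammation and pain), and the other group of 3 from mice given saline. Each library was made from 10000 sorted nuclei, so cytoplasmic RNA was largely left behind. The labels call the sorted cells Foxp2-positive neurons and state neither strain, age and sex, nor the time between CFA and collection, nor whether a library was 1 animal or a pool. All p-values therefore rest on the spread among libraries, part of which may be technical. The question of the comparison was whether these neurons differ in gene expression between mice with lasting pain and controls.

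Total counts were 9673038 to 11850741 per library. Foxp2 itself was present in every library, at 29.2 ± 5.50 CPM (counts per unit of library size, scaled between libraries; mean ± SD, n = 3) with CFA and 33.8 ± 8.61 CPM with saline, and Slc17a7, the vesicular glutamate transporter of cortical excitatory neurons, was at 2279 ± 357 and 2144 ± 177 CPM. Of 8 transcription factors or cofactors of corticothalamic neurons (Foxp2, Tbr1, Tle4, Fezf2, Sox5, Zfpm2, Nfia and Nfib), all 8 were expressed at levels that passed the filter. Markers of other cells were present too, among them the GABA-synthesis gene Gad1 at 64.9 ± 18.8 and 60.2 ± 12.4 CPM. No unsorted tissue was used here, so enrichment of corticothalamic nuclei was not measured. Saline replicate 3 stood apart from most other libraries: the chi-square of its counts, divided by the degrees of freedom, was 45.9 and 43.3 against saline replicates 1 and 2, 32.9 and 38.6 against CFA replicates 2 and 3 and 22.1 against CFA replicate 1, where pairs without it ran from 16.4 to 27. In such libraries fewer nuclei of a type and less RNA per nucleus cannot be told apart.

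None of the 6 markers was called different between CFA and saline. Over all 13560 genes tested, the quasi-likelihood test of edgeR, adjusted by the Benjamini-Hochberg method, called 0 genes (0.0%) at an adjusted p under 0.05. DESeq2 called 5 genes (0.0369%), limma-voom 0 (0.0%) and edgeR's likelihood ratio test 11 (0.0811%), and none of them called any of the 6 markers. At an unadjusted p under 0.05 the quasi-likelihood test had 437 genes (3.22%), of which 254 were lower (1.87%) and 183 higher (1.35%) in CFA, and 1 of the 6 markers, Ntsr1, was among the lower ones. DESeq2, limma-voom and the likelihood ratio test also had Ntsr1 alone of the 6 below that p, where they had 3.37%, 3.46% and 3.75% of all genes. Without CFA replicate 2 or 3 or saline replicate 1 or 2, the unadjusted p of Ntsr1 was 0.118, 0.0662, 0.0636 and 0.0945. Groups without overlap were found for 1019 genes (7.51%), of which 538 were lower (3.97%) and 481 higher (3.55%) in CFA, and Ntsr1 was the only one of the 6 markers among them. Log2 fold changes (CFA minus saline) were negative for 4 of the 6 markers, with a median of -0.14, which was -0.32 without saline replicate 3 and 0.027 without saline replicate 2. Over all genes 50.2% were negative and the median was -0.0011.

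**Figure D1:**
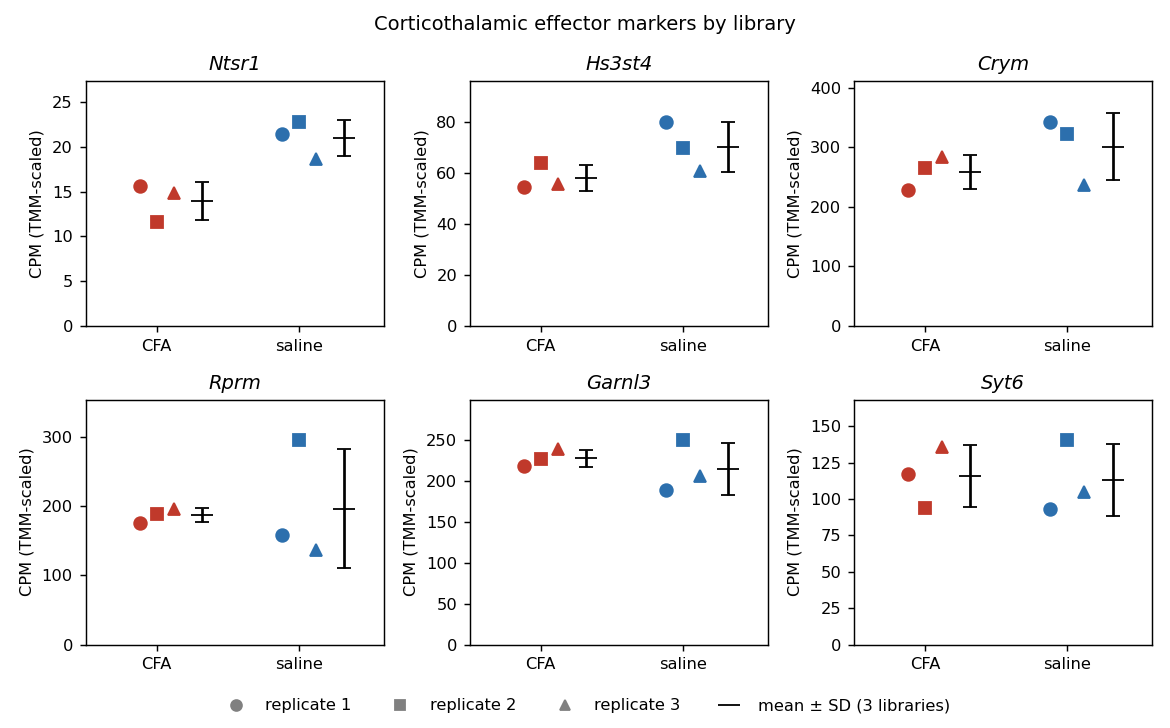
Level of each corticothalamic effector marker in CPM (vertical axes, from 0) in the 3 CFA and the 3 saline libraries, with the marker shape giving the replicate and the bar the mean ± SD of 3 libraries. The groups are separate for Ntsr1 (11.6 to 15.6 against 18.7 to 22.8 CPM) and overlap for the other 5 genes.

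Ntsr1 encodes the high-affinity neurotensin receptor, which signals through Gq proteins. Its gene model lies on the plus strand of chromosome 2 (chr2:180499976-180544979, mm10) and has 4 exon blocks with 3916 bases of exon, none of which overlaps another gene in the table. Ntsr1 was at 15.6, 11.6 and 14.8 CPM in CFA replicates 1, 2 and 3 and at 21.4, 22.8 and 18.7 CPM in saline replicates 1, 2 and 3. Every CFA library was thus below every saline library, with CFA replicate 2 the lowest and saline replicate 2 the highest. The means were 14.0 ± 2.11 and 21 ± 2.06 CPM (SD, n = 3), a ratio of 0.669, and the log2 fold change was -0.58 ± 0.25 (SE; 95% interval -1.12 to -0.041; unadjusted p = 0.0367 and adjusted p = 1.0 in edgeR's quasi-likelihood test). Without saline replicate 3 the log2 fold change was -0.65 (unadjusted p = 0.0257 and adjusted p = 0.672 in the same test). With all libraries it ranked 304th of the 13560 genes by p. A two-sided exact permutation test of log2 CPM gave p = 0.1, the smallest that 3 against 3 libraries allow (adjusted p = 0.6 over the 6 markers), and for the other 5 markers p ran from 0.2 to 1.0. The counts behind these values ran from 132 to 246, the fewest of the 6 markers, so that counting alone gave a coefficient of variation of 8.7% to 6.4%, against 22.4% estimated between libraries.

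Sequence upstream of 3 of the markers is shown because they stand for the 3 patterns described here: Ntsr1, the marker whose groups were apart; Hs3st4, with a smaller difference of the same sign; and Rprm, whose level turned on 1 library. Each run is the 250 bases before the transcript start, on the gene's own strand, from RefSeq on GRCm38.p6, in which 5 of the 6 markers had an entry. Capitals mark GGGCGG (the GC box bound by Sp1-type factors) and AGGTGTG, on either strand.
Ntsr1, chr2:180499726-180499975, plus strand: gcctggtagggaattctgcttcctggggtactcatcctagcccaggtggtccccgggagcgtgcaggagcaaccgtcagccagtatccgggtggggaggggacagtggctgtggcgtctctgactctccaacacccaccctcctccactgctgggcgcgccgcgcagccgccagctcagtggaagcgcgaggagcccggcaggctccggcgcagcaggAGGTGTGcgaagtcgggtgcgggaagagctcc
Hs3st4, chr7:123982578-123982827, plus strand: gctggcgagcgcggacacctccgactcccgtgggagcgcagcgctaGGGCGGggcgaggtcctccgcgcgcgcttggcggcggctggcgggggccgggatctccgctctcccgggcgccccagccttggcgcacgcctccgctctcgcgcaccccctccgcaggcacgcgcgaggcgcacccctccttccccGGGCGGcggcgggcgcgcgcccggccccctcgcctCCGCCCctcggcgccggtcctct
Rprm, chr2:54085553-54085802, minus strand: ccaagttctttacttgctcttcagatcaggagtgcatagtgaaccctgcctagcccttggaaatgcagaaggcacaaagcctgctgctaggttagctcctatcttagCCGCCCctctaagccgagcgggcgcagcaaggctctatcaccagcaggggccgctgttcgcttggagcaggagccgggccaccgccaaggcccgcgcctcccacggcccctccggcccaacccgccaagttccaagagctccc
All 3 runs were rich in G and C, at 68.4% for Ntsr1, 82.0% for Hs3st4 and 62.4% for Rprm, against a median of 52.4% over all 32851 RefSeq promoter entries. The Hs3st4 run held 43 CpG pairs, the Ntsr1 run 18 and the Rprm run 13, where the median entry held 6. GGGCGG occurred 3 times before Hs3st4, 1 time before Rprm and 0 times before Ntsr1, and was present in 32.7% of all entries. The T-box sequence AGGTGTGA, bound by factors such as the corticothalamic regulator Tbr1, occurred in none of the 3 and in 1.12% of all entries. Its first 7 letters, AGGTGTG, a string chosen after the sequence had been seen and contained in AGGTGTGA, occurred 1 time before Ntsr1 and in 5.1% of all entries. TATAAA (12.4% of entries), CCAAT (33.8%), the forkhead sequence TGTTTAC (3.17%) and the cyclic AMP element TGACGTCA (1.55%), searched on both strands, were in none of the 3 runs. The Hs3st4 model of the count table begins at 123983181, downstream of the start that this RefSeq entry uses.

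Syt6 belongs to the synaptotagmins, membrane proteins with C2 domains that act in vesicle traffic and fusion. It lies on the plus strand of chromosome 3 (chr3:103575282-103645567), with 10 exon blocks and 5306 bases of exon, the longest of the 6. Of these, 503 bases (9.48%) overlap a gene model on the opposite strand that the table names Atg4a and GENCODE names Atg4a-ps, which itself held 1 to 4 counts per library, and the libraries do not mark strand. Syt6 was at 117, 93.6 and 136 CPM in CFA replicates 1 to 3 and at 93.1, 140.3 and 105 CPM in saline replicates 1 to 3. The ranges lay almost on top of each other, with the highest value in saline replicate 2. Its means were 116 ± 21.2 and 113 ± 24.5 CPM (SD, n = 3), with a log2 fold change of 0.032 (95% interval -0.400 to 0.465), and -0.014 without saline replicate 3.

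Garnl3 carries a domain like those that switch off Rap GTPases. It lies on the minus strand of chromosome 2 (chr2:32986366-33087204) and is spread over 29 exon blocks. Garnl3 was at 218, 226 and 239 CPM in CFA libraries and at 188, 249 and 205 CPM in saline libraries, so that the narrow CFA range sat inside the saline range. It was the steadiest of the 6 over all libraries, with a coefficient of variation of 10.0%. The log2 fold change was 0.088 (95% interval -0.278 to 0.454), and 0.057 without saline replicate 3.

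Hs3st4 encodes a heparan sulfate 3-O-sulfotransferase, a Golgi enzyme that adds a rare sulfate to the sugar chains of cell-surface proteoglycans. Its 2 exon blocks span 415809 bases of chromosome 7 (chr7:123983181-124398989, plus strand), of which 0.692% is exon. In GENCODE 130 bases of its exon sequence (4.52%) overlap Gm27040 on the opposite strand. Hs3st4 was at 54.3, 63.9 and 55.6 CPM in CFA libraries and at 79.9, 69.5 and 60.6 CPM in saline libraries. CFA replicate 2 was above saline replicate 3, and this pair was the only overlap between the groups. The means were 57.9 ± 5.22 and 70.0 ± 9.66 CPM (SD, n = 3), and the log2 fold change was -0.27 ± 0.19 (SE; 95% interval -0.675 to 0.129; adjusted p = 1.0 in edgeR's quasi-likelihood test). Without saline replicate 3 it was -0.37 (adjusted p = 0.748 in edgeR), and without saline replicate 1 it was -0.17.

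Crym encodes mu-crystallin, a cytosolic protein that binds thyroid hormone. It lies on the minus strand of chromosome 7 (chr7:120186384-120201988), with 8 exon blocks and 1256 bases of exon. Crym was at 228, 266 and 284 CPM in CFA libraries and at 343, 322 and 237 CPM in saline libraries. Saline replicates 1 and 2 were above every CFA library, and saline replicate 3 was below 2 of the 3. Its log2 fold change was -0.21 (95% interval -0.611 to 0.185). It was -0.36 without saline replicate 3 and -0.11 without saline replicate 1.

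Rprm encodes Reprimo, a p53-induced protein that arrests the cell cycle in G2 and that is also abundant in deep-layer neurons, which do not divide. It is a gene of 1 exon of 1460 bases on the minus strand of chromosome 2 (chr2:54084093-54085552). Rprm was at 176, 189 and 196 CPM in CFA libraries and at 158, 295 and 136 CPM in saline libraries. Saline replicate 2 alone was far above the other 5 libraries, and the other two saline libraries were below all 3 CFA libraries. The coefficient of variation was 43.9% in saline and 5.41% in CFA libraries, and the log2 fold change of -0.069 (95% interval -0.59 to 0.45) became 0.35 without saline replicate 2 and -0.28 without saline replicate 3.

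**Figure D2:**
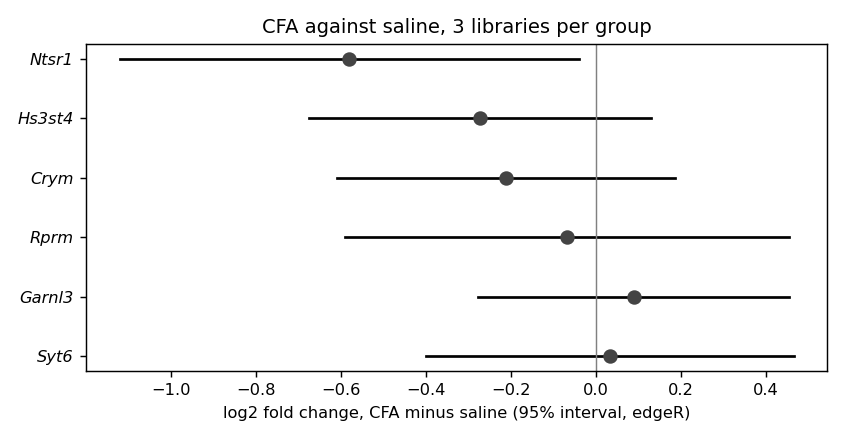
Log2 fold change of each marker, CFA minus saline (horizontal axis), from edgeR's quasi-likelihood fit to 3 libraries per group, with points for the estimate and lines for its 95% interval. The unadjusted interval of Ntsr1, -1.12 to -0.041, lies below 0 and those of the other 5 genes include 0.

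Levels can be compared between genes only per length of exon, here as RPKM (CPM per kilobase of exon, all 6 libraries, mean ± SD). Crym was the most abundant of the 6 on this scale, at 223 ± 36.6 RPKM, followed by Rprm at 131 ± 37.7 and Garnl3 at 65.2 ± 6.53 RPKM. Hs3st4 and Syt6 were level with each other, at 22.2 ± 3.33 and 21.5 ± 3.87 RPKM, and Ntsr1 was lowest, at 4.47 ± 1.08 RPKM. Each step in this order was present in 6 of 6 libraries (exact sign-flip permutation test, two-sided, p = 0.0312, the smallest for 6 libraries; adjusted p = 0.0391 over 5 neighbouring pairs), except that between Hs3st4 and Syt6, where Hs3st4 was higher in 3 of 6 (mean log2 difference 0.053 ± 0.39 SD, exact permutation p = 0.781). By RPKM, Crym was at or above 98.4% of the tested genes, Rprm 96.1% and Ntsr1 31.7%. The receptor by which the class is usually targeted was thus the least abundant of these transcripts in the sorted nuclei.

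Each marker was also set against the others, and none passed after adjustment. Relative to the mean log2 CPM of the other 5 markers, Ntsr1 was at -3.16, -3.64 and -3.41 in CFA libraries and at -2.80, -3.03 and -2.82 in saline libraries. On this log2 scale it was 0.52 lower in CFA, without overlap between the groups (two-sided exact permutation test, p = 0.1, the smallest possible; adjusted p = 0.3 over 6 markers). Garnl3 was at 1.39, 1.47 and 1.39 in CFA libraries and 0.954, 1.10 and 1.31 in saline libraries relative to the other 5. This difference was 0.30, also without overlap (p = 0.1 in the same exact permutation test; adjusted p = 0.3). The mean it was set against includes Ntsr1, and the plain log2 CPM of Garnl3 differed by 0.097, with overlap. The other 4 markers overlapped, with differences from -0.14 (Hs3st4) to 0.23 (Syt6).

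**Figure D3:**
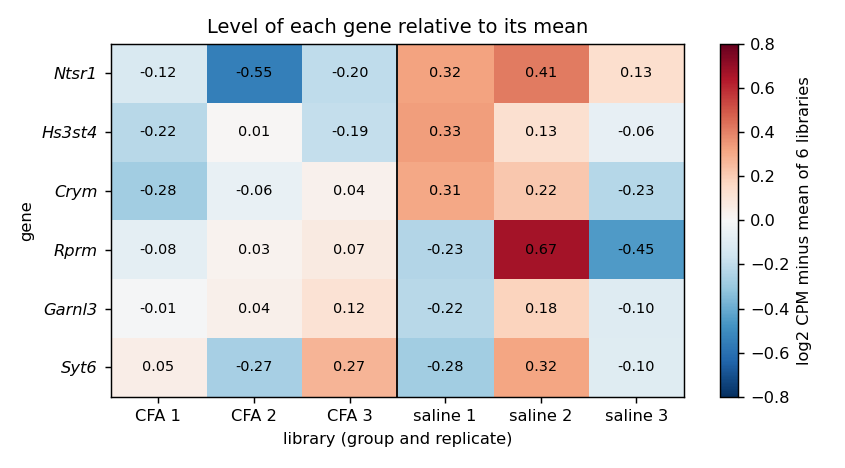
Log2 CPM of each marker (rows) in each library (columns) minus the gene's mean over the 6 libraries, with blue for below and red for above the mean. Ntsr1 is below its mean in all 3 CFA libraries and above it in all 3 saline libraries, and saline replicate 2 is above the mean for all 6 genes, most for Rprm (0.665).

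Saline replicate 2 was the highest library for Ntsr1, Rprm, Garnl3 and Syt6, and saline replicate 1 for Hs3st4 and Crym. Over the 6 libraries, log2 CPM of Rprm and Garnl3 varied together, with Pearson's r = 0.824 (exact permutation p = 0.025, adjusted p = 0.236 over 15 pairs) and Spearman's rho = 0.943 (exact permutation p = 0.0167, adjusted p = 0.25). Without saline replicates 2 and 3, the libraries farthest from the median of Rprm, r was 0.984. Hs3st4 and Crym had r = 0.817 (exact permutation p = 0.0472, adjusted p = 0.236) and rho = 0.829 (exact permutation p = 0.0583, adjusted p = 0.292), and r was 0.466 without CFA replicate 1 and saline replicate 1. Garnl3 and Syt6 had r = 0.786 and rho = 0.829 with the same p-values as that pair, and r was 0.491 without saline replicates 1 and 2. None of the 15 pairs passed after adjustment. For Ntsr1 the highest r was 0.566, with Hs3st4 (exact permutation p = 0.236, adjusted p = 0.708; rho = 0.543, exact permutation p = 0.297, adjusted p = 0.889). The values of Ntsr1 rested on CFA replicate 2 and saline replicate 2, the libraries farthest from its median. Without them r was 0.918 with Hs3st4, and that with Garnl3 went from -0.207 to -0.969 and that with Syt6 from 0.244 to -0.966, over 4 libraries.

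The genes whose log2 CPM followed each marker most closely over the 6 libraries were picked as the highest of 13559 Pearson correlations, so their r is a description without a test. For Ntsr1 they were 4930513N10Rik (r = 0.991), Epha5 (0.985), an ephrin receptor, and Dscr3 (0.984). Of these, 4930513N10Rik had few counts, at 0.499, 0.0 and 0.385 CPM in CFA and 1.43, 2.23 and 1.01 CPM in saline libraries. Those of Hs3st4 were Arid4a (0.985), Fam98b (0.985) and Mthfd2l (0.980), and those of Crym were the peroxiredoxin Prdx1 (0.996), Rabif (0.989) and Cnot8 (0.987). Rprm was followed by Pik3c3 (0.989), Usp30 (0.980) and 3110082I17Rik (0.979), Garnl3 by the histamine receptor Hrh1 (0.989), Gas6 (0.985) and Lingo1 (0.985), and Syt6 by Sema6d (0.988), Gdpd5 (0.988) and Spcs3 (0.985). No other marker was among the 3 closest genes of any of the 6.

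Other layer and cell type markers gave the frame for these values. Of the 8 corticothalamic transcription factors, 0 were called, 6 had a negative log2 fold change and the median was -0.069. Sox5, named after its values were seen, was the 1 gene of the 8 without overlap, at 34.5 ± 1.52 and 29.9 ± 3.08 CPM. It was higher in CFA, as were 3.55% of all genes without overlap. The most abundant of the 8 were Fezf2, at 219.6 ± 10.0 CPM with CFA and 225 ± 34.8 CPM with saline, and Nfib, at 204 ± 22.2 and 239.9 ± 30.6 CPM. The summed level of all 8 was 886 to 1003 CPM in CFA and 894 to 1106 CPM in saline libraries. With the libraries scaled by this sum, an alternative chosen after seeing the data, the log2 fold change of Ntsr1 was -0.51 where the median of all genes was 0.077. Scaled by the sum of 7 excitatory neuron markers it was -0.70, where the median of all genes was -0.12. Relative to those medians Ntsr1 was at -0.59 and -0.58. Rescaling shifts all genes by about the same amount, and subtracting the median removes that shift. The likeness of these values is therefore built in and tests nothing.

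Layer 6b neurons, the deepest cortical neurons, had 7 tested markers, of which 6 were negative and 0 called, and their median log2 fold change was -0.66. Ctgf, a secreted matrix protein and the most abundant of them, was at 126 ± 31.0 and 199.6 ± 54.0 CPM in CFA and saline libraries, and Cplx3, a complexin, at 12 ± 7.06 and 20.0 ± 9.11 CPM. Ctgf had a log2 fold change of -0.66 ± 0.22 (SE; unadjusted p = 0.0096, rank 75 of all genes, adjusted p = 1.0 in edgeR's quasi-likelihood test), ahead of Ntsr1 at rank 304. It was the 1 gene of the 7 with an unadjusted p under 0.05, where 1.87% of all genes were lower by that measure. Ctgf and Trh, the thyrotropin-releasing hormone gene at 10.3 ± 0.365 and 15.2 ± 3.77 CPM, were lower in CFA without overlap, 2 of 7 against 3.97% of all genes. The summed level of these markers was 216, 129.8 and 158 CPM in CFA replicates 1 to 3 and 236, 336 and 216 CPM in saline replicates 1 to 3. Within each group the libraries stood in the same order for this sum as for Ntsr1, and no layer 6b marker was at 0 in all libraries. Its part in the Ntsr1 values was not tested.

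Of 12 striatal projection neuron markers in the table, 10 were tested (Drd2 and Isl1 were not) and 0 called. All 10 were negative (median log2 fold change -0.79), and 6 had an unadjusted p under 0.05, against 1.87% of all genes in that direction. Ppp1r1b, which encodes the dopamine-regulated phosphatase inhibitor DARPP, was at 134 ± 23.2 and 163 ± 49.0 CPM in CFA and saline libraries, while Drd1, a dopamine receptor, was at 84.6 ± 18.9 and 126 ± 27.8 CPM. The summed level of the 12 markers ranged from 329 to 538 CPM in CFA and from 438 to 1082 CPM in saline libraries, highest in saline replicate 1. None was at 0 in all libraries, and means over all libraries ran from 0.33 CPM (Isl1) to 148 CPM (Ppp1r1b). Which of the sorted cells held these transcripts was not tested, so the list need not measure striatal cells alone. With the mean level of the tested markers of this list as a covariate, the log2 fold change of Ntsr1 was -0.48 (unadjusted p = 0.178, adjusted p = 1.0 in edgeR's quasi-likelihood test). The same limit holds for this covariate.

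The median log2 fold change was 0.26 for upper layer markers (Lamp5 and Calb1 the most abundant) and -0.18 for layer 5 markers (Bcl11b and Etv1), with 9 genes tested and 0 called in each list. Lamp5 was at 287 ± 16.5 and 239 ± 34.2 CPM in CFA and saline libraries and Bcl11b at 136 ± 19.6 and 152 ± 7.81 CPM. Summed levels of upper layer markers were 401 to 428 CPM in CFA and 322 to 359 CPM in saline libraries. Those of 8 astrocyte markers were 465 to 655 and 468 to 538 CPM, and those of 9 microglia markers 94.1 to 142 and 73.4 to 107 CPM. Median log2 fold changes were 0.21 for astrocyte, 0.55 for microglia and 0.088 for excitatory neuron markers, with 0 called. Of the 8 astrocyte markers, 4 were positive and 4 negative. Slc1a2, the most abundant, was among the negative ones, at 307 ± 52.9 and 323 ± 39.4 CPM in CFA and saline libraries. From the positive ones, 3 (Slc1a3, Aldoc and Fgfr3) were higher in CFA with an unadjusted p under 0.05 and without overlap, against 1.35% and 3.55% of all genes. Aldoc, which encodes aldolase C, was at 176 ± 30.0 and 125 ± 14.1 CPM in CFA and saline libraries (log2 fold change 0.50 ± 0.18 SE). Of the 9 microglia markers, Csf1r was higher in CFA at an unadjusted p under 0.05 and Aif1 was higher without overlap. Slc1a3, Fgfr3, Csf1r, Aif1 and Trh were named after their values were seen. The part of these cells in the marker values was not tested.

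**Figure D4:**
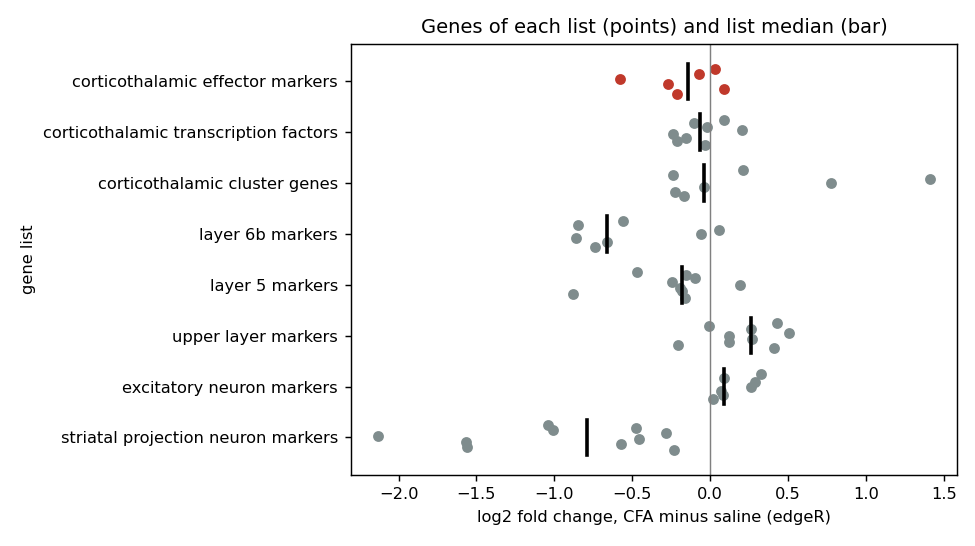
Log2 fold changes, CFA minus saline (horizontal axis), of the tested genes of 8 lists, with a point for each gene and a bar for the list's median. The median of the 6 corticothalamic effector markers (red, -0.14) lies between those of the layer 6b markers (-0.66) and the upper layer markers (0.26), and none of the genes shown was called.

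The partners of Ntsr1 in neurotensin signalling were measured in the same libraries. Of 14 tested genes (the peptide, other receptors, Gq proteins, phospholipases, arrestins and peptidases), 0 were called, 0 had an unadjusted p under 0.05, and 6 were positive and 8 negative, with a median of -0.032. Nts, the neurotensin precursor, was at 0.998, 0.353 and 0.865 CPM in CFA libraries and at 2.95, 1.76 and 1.82 CPM in saline libraries. These groups did not overlap, but the values rest on 4 to 33 counts per library, and the log2 fold change was -1.55 ± 0.77 (SE). Nln, which encodes neurolysin, a peptidase that cleaves neurotensin, was at 47.3, 46.9 and 47.1 CPM in CFA and 55.5, 72.3 and 54.1 CPM in saline libraries, again without overlap, with a log2 fold change of -0.37 ± 0.19 (SE). Nts and Nln were the 2 genes of the 14 without overlap, both lower in CFA, as were 3.97% of all genes. The G protein gene Gna11 and the sorting receptor Sort1, the most abundant of the list per exon length, had log2 fold changes of 0.055 and 0.26.

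Among 19 tested heparan sulfate enzymes other than Hs3st4, 10 were positive, 9 negative and 0 called. Its relative Hs3st2 was the most abundant of the list at 86.7 RPKM, above the 22.2 RPKM of Hs3st4, with a log2 fold change of 0.015, and the sulfatase Sulf2 was next at 73.5 RPKM. Hs3st5, another 3-O-sulfotransferase, was at 17.9, 20.3 and 20.1 CPM in CFA and 25.6, 27.7 and 23.6 CPM in saline libraries. The groups did not overlap, and the log2 fold change was -0.40 ± 0.22 (SE). Glce, the epimerase of heparan sulfate synthesis, was at 65.9, 85.5 and 60.4 CPM in CFA and 54.1, 52.8 and 46.0 CPM in saline libraries. Every CFA value was above every saline value, and the log2 fold change was 0.47 ± 0.20 (SE; unadjusted p = 0.0314 and adjusted p = 1.0 in edgeR's quasi-likelihood test). Glce was the 1 gene of the 19 with an unadjusted p under 0.05, where 3.22% of all genes had one and 1.35% were higher in CFA. Glce and Hs2st1 were higher without overlap, 2 of 19 against 3.55% of all genes. Hs3st5 was the 1 gene lower without overlap, against 3.97%. Hs2st1, named after its values were seen, was at 76.6 ± 8.02 and 67.3 ± 7.11 CPM in CFA and saline libraries.

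For Crym, 15 tested genes of thyroid hormone transport, activation and action had 8 positive and 7 negative log2 fold changes, with a median of 0.080 and 0 called. The receptor Thra and the hormone-induced factor Klf9 were the most abundant per exon length, with log2 fold changes of -0.018 and 0.086. Rxrg, a retinoid receptor that pairs with thyroid hormone receptors, was at 8.15, 5.29 and 8.27 CPM in CFA and 21.5, 17.4 and 7.40 CPM in saline libraries, with saline replicate 3 inside the CFA range. Dio2, the enzyme that activates thyroid hormone and is made mainly by astrocytes in brain, was at 2.75, 3.44 and 2.88 CPM in CFA and 1.25, 1.39 and 0.203 CPM in saline libraries. The Dio2 values rest on only 2 to 39 counts per library. These 2 genes had unadjusted p-values of 0.0136 and 0.0489 and adjusted p-values of 1.0 in edgeR's quasi-likelihood test, 2 of 15 where 3.22% of all genes had an unadjusted p under 0.05.

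Around Rprm, 14 tested p53 targets and checkpoint genes had 8 positive and 6 negative log2 fold changes, a median of 0.032 and 0 called, and 0 had an unadjusted p under 0.05. Its paralog Rprml was at 166 RPKM and had a log2 fold change of 0.0046, and the apoptosis gene Bax was at 91.8 RPKM with 0.089. The mitotic genes Cdk1 and Ccnb1 did not pass the filter on low counts. Gadd45a and Sesn1, the 2 with the smallest p, had log2 fold changes of 0.53 and -0.21. Sesn1 was the 1 gene of the 14 without overlap, where the share of all genes was 7.51%.

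The 18 Rap GTPases and regulators listed for Garnl3 were all tested, with 11 positive, 7 negative and 0 called, 0 of them with an unadjusted p under 0.05. Rasgrp1, an exchange factor, was the most abundant at 134 RPKM, and Rap1b followed at 76.7 RPKM. Their log2 fold changes were 0.19 and -0.19, and those of Sipa1l2 and Rasgrp2, the 2 with the smallest p, were 0.56 and -0.50. Groups without overlap were found for 0 of the 18, and for 7.51% of all genes.

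Of the other synaptotagmins, 14 were tested, 6 positive and 8 negative, with a median of -0.012 and 0 called. Syt1, the calcium sensor of fast transmitter release, was at 409 RPKM and Syt5 at 344 RPKM, both far above the 21.5 RPKM of Syt6, with log2 fold changes of 0.115 and -0.018. Syt10 was at 17.2, 16.4 and 11.5 CPM in CFA and 25.9, 22.8 and 19.7 CPM in saline libraries, without overlap and with a log2 fold change of -0.60 ± 0.26 (SE; unadjusted p = 0.036 and adjusted p = 1.0 in edgeR's quasi-likelihood test). Syt10 was the 1 gene of the 14 with an unadjusted p under 0.05 and the 1 without overlap, where 1.87% and 3.97% of all genes were lower by these measures. Syt12 had a log2 fold change of 0.20.

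Ntsr1, Hs3st4 and Crym had a negative log2 fold change in each of the 17 other fits, while Rprm, Garnl3 and Syt6 took both signs. The log2 fold change of Ntsr1 ran from -0.70 with scaling by excitatory neuron markers to -0.46 without CFA replicate 2, and its unadjusted p from 0.0183 to 0.178, with no adjusted p below 0.672 (edgeR, without saline replicate 3). Rprm ran from -0.28 without saline replicate 3 to 0.35 without saline replicate 2, and Syt6 from -0.098 without CFA replicate 3 to 0.22 without saline replicate 2.

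**Figure D5:**
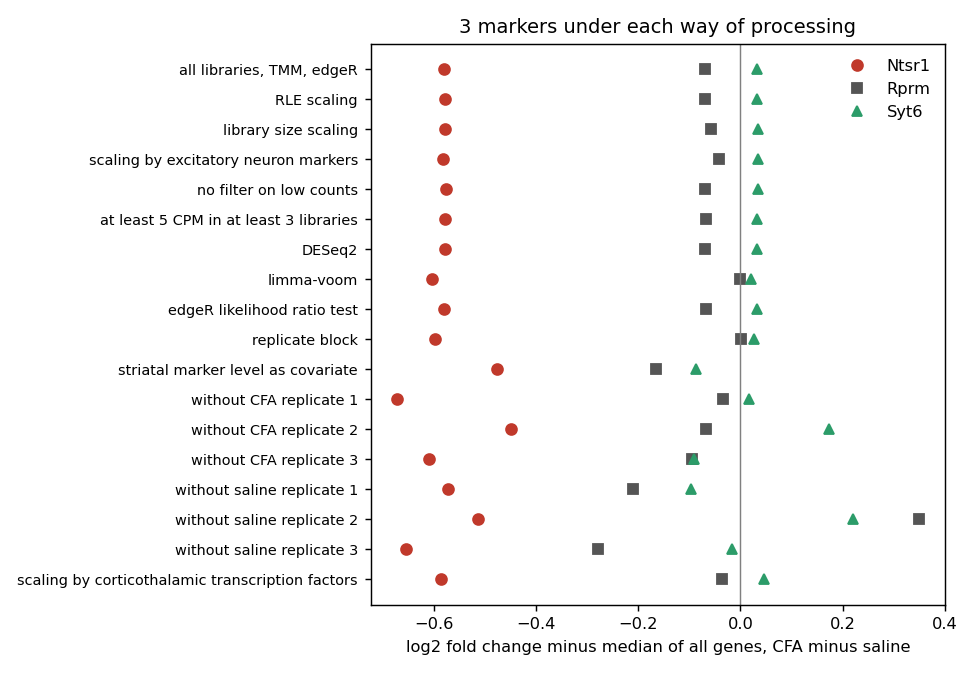
Log2 fold change minus the median of all genes, CFA minus saline (horizontal axis), of Ntsr1, Rprm and Syt6 under each of 18 ways of processing (rows: the reported fit and 17 others). Ntsr1 stays between -0.67 and -0.45, while Rprm and Syt6 lie on both sides of 0. Subtracting the median removes most of a change in scaling, so rows that differ only in scaling are alike by construction.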

How the data were processed

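The deposited values are raw counts, 1 row a gene, for 6 libraries (3 CFA, 3 saline), grouped by sample title. Per the labels' protocols, cDNA from Smart-seq V4 was amplified over 9 PCR cycles and Nextera XT libraries were made from 300 ng. Neither kit marks strand. The submitters' processing notes name featureCounts 2.0.1, HISAT2 2.2.1, edgeR 3.32.1, SAMtools 1.13 and Trim Galore, with mm10. Whether strand or multi-mapping reads were used in counting was not stated.

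Counts were fitted with edgeR 4.0.16 (R 4.3.3): TMM scaling, filterByExpr, quasi-likelihood test, treatment as the only term, Benjamini-Hochberg adjustment over 13560 genes, threshold 0.05. Standard errors came from the F statistic and intervals from the t distribution at 95%. CPM was scaled by TMM, log2 CPM used a prior count of 2, and RPKM used the table's exon lengths. The fits were tested on simulated data, in which the planted changes were larger than those of the markers. That test cannot show whether changes as small as theirs would be called. A count of 3, the limit that a count of 0 allows, was 0.25 to 0.304 CPM, for counting error only, since reads had no molecular identifiers. Every pair of libraries differed beyond sampling noise (chi-square 16.4 to 45.9 times its degrees of freedom).

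The members and lists were chosen with earlier results of these data known. Named genes were the 6 markers, the 3 genes most correlated with each, Foxp2, Slc17a7, Gad1 and Gad2, the 2 most abundant genes per cell type list, and per pathway list the 2 highest in RPKM and the 2 with the smallest p, and not all of these are printed. Lists of thalamic, layer 6 intratelencephalic, oligodendrocyte lineage and vascular markers were computed and are given with the inhibitory list in the closing section. Alternatives were RLE, library-size and marker-based scaling, other filters, DESeq2 1.42.0, limma-voom (limma 3.58.1), the likelihood ratio test, a replicate block, a striatal covariate and leaving out each library.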

Additional observations from a re-analysis of the deposited data

How the results depend on the processing

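The count of members called was 0 in each of the 17 other fits. The count of all genes called, 0 in the reported fit, was 9 without a filter on low counts, 5 with DESeq2, 11 with edgeR's likelihood ratio test and 6 with the replicate block, and it ran from 0 to 5 when 1 library was left out, with 5 without saline replicate 3. Same-numbered libraries did not deviate together (correlations of -0.079, 0.025 and -0.069 for numbers 1, 2 and 3), and no library correlated best with its own number. The replicate block, which rests on shared numbers only, left Ntsr1 at -0.59. The median log2 fold change of the 6 markers, -0.14, ran from -0.32 without saline replicate 3 to 0.027 without saline replicate 2. Ntsr1, Hs3st4 and Crym stayed negative in all 17 fits, though Hs3st4 ran from -0.39 to -0.16 and Crym from -0.36 to -0.11. Rprm turned positive with limma-voom (0.014), with the replicate block (0.015), with scaling by corticothalamic transcription factors (0.041) and without saline replicate 2 (0.35, from a lowest leave-one-out value of -0.28). Garnl3 turned negative with scaling by excitatory neuron markers (-0.022) and with the striatal covariate (-0.017). Syt6 turned negative in the same 2 fits (-0.084 and -0.089), and ran from -0.098 to 0.22 when 1 library was left out, negative without CFA replicate 3, saline replicate 1 or saline replicate 3. The cause of these turns was not tested. A prior count of 0.5 or library-size scaling changed the sign of no member's level or relative level. Without length scaling the order itself changed, to Crym, Garnl3, Rprm, Syt6, Hs3st4 and Ntsr1. In that order 4 of 5 neighbour pairs differed, but the pairs are not the same as those by RPKM. The exception was Garnl3 over Rprm, higher in 5 of 6 libraries (exact sign-flip permutation test, p = 0.0625). At 132 to 246 counts, depth limits Ntsr1 most among the 6 markers.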

Other observations

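Of 7 tested genes that name corticothalamic subclusters in mouse cortex, 3 were positive, 4 negative and 0 called, with a median log2 fold change of -0.038. The most abundant were Sla, a Src-like adaptor, at 67.4 ± 2.88 and 79.5 ± 36.5 CPM with CFA and saline, and Wls, which carries Wnt proteins to the cell surface, at 66.8 ± 12.4 and 57.8 ± 7.66 CPM. Nxph2, a neurexophilin, chosen after its values were seen, was at 7.36 ± 1.29 and 2.74 ± 2.57 CPM without overlap between the groups (log2 fold change 1.41 ± 0.80 SE), where 3.55% of all tested genes were higher in CFA without overlap.

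Further cell type lists gave these median log2 fold changes: inhibitory neuron markers 0.27 over 9 tested genes, oligodendrocyte markers -0.032 over 7, oligodendrocyte precursor markers 1.02 over 4, thalamic neuron markers 0.39 over 2, vascular markers -0.56 over 2, and layer 6 intratelencephalic and claustral markers -0.70 over 3. None of these genes was called by edgeR's quasi-likelihood test. Of the 4 oligodendrocyte precursor genes, Olig1 and Gpr17 were higher in CFA with an unadjusted p under 0.05 and without overlap. The shares of all genes were 1.35% and 3.55%. Cspg4 was lower without overlap, as were 3.97% of all genes. Gpr17 rested on 0 to 67 counts per library and Cspg4 on 10 to 42. Of the 9 inhibitory neuron genes, 8 were positive and 1 (Adarb2) was negative. Adarb2 was lower at an unadjusted p under 0.05, as were 1.87% of all genes, and rested on 11 to 67 counts per library. Gpr17, Cspg4 and Adarb2 were named after their values were seen. Car3, a marker of 1 group of layer 6 intratelencephalic neurons, had 0 counts in all 6 libraries.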
